A study of Mus musculus with 9 samples.

Results

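Hearts of mice that carry a transgene for an always-active mutant of a membrane transport protein, called K-line in the labels, were compared with control hearts. The comparison rests on 6 of the 9 arrays of the series, namely K-line arrays 3, 5 and 6 and control arrays 1, 2 and 3, chosen by their labels. The remaining 3 arrays (2, 3 and 4) are from N-line hearts, which carry the normal form of the same protein as a transgene, and are given beside the K-line values. All 9 samples are heart tissue of FVB mice aged 14 days that the labels call male, and total RNA was read on bead arrays (Illumina Mouse-6 v1.1), in which short probes on beads bind labelled copies of the transcripts. The labels call the third group only control and state neither the promoter of the transgenes, nor the genetic background of the controls beyond FVB, nor the number of founder lines. They also do not say that each array came from its own animal, so each p-value reflects only how far these samples scatter, part of which may be technical. Per its title, the series asks about genes linked to enlargement of the heart.

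In a heart under load, muscle cells grow in size, and they return in part to the gene programme of the fetal heart, in which slow myosin (Myh7) stands beside the fast adult form (Myh6). Resident and recruited macrophages, fibroblasts and the matrix take part in this remodelling. At the age of 14 days the mouse heart is itself completing the change from fetal to adult metabolism, from glucose towards fatty acids. These sentences are background and not results of the arrays.

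The 9 arrays detected between 38.4% and 40.8% of 46657 probes, and arrays of 1 group correlated at 0.988 to 0.993 within K-line and at 0.993 to 0.995 within control, against 0.970 to 0.979 between K-line and control. The K-line arrays lay on their own slide while control and N-line shared another, so the slide's effect and that of K-line cannot be told apart in any value below. Tissue markers bore out heart muscle: the cardiac myosin Myh6 read 13.45, 13.20 and 13.07 on K-line arrays 3, 5 and 6 and 13.10, 13.14 and 12.99 on control arrays 1, 2 and 3, in log2 intensity, the unit of every level here. The label male did not hold for K-line. Xist, the RNA that silences an X chromosome in female cells, read 10.59, 11.13 and 10.47 in K-line, against 4.94 to 5.10 in N-line and 4.87 to 5.03 in control, where it was below background. The Y-linked genes Kdm5d and Ddx3y were detected on no K-line array and on all 3 control arrays, with Kdm5d at 4.59, 4.49 and 4.47 in K-line and 7.66, 7.22 and 7.16 in control. Myl7, the myosin light chain of the atria, read 5.22, 8.44 and 4.90 in K-line and 13.57, 13.44 and 13.38 in control. Sex markers and Myl7 therefore move with K-line in every comparison below, and their part in any single gene was not tested. In tissue RNA, fewer cells of a type and less RNA per cell cannot be told apart.

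**Figure D1:**
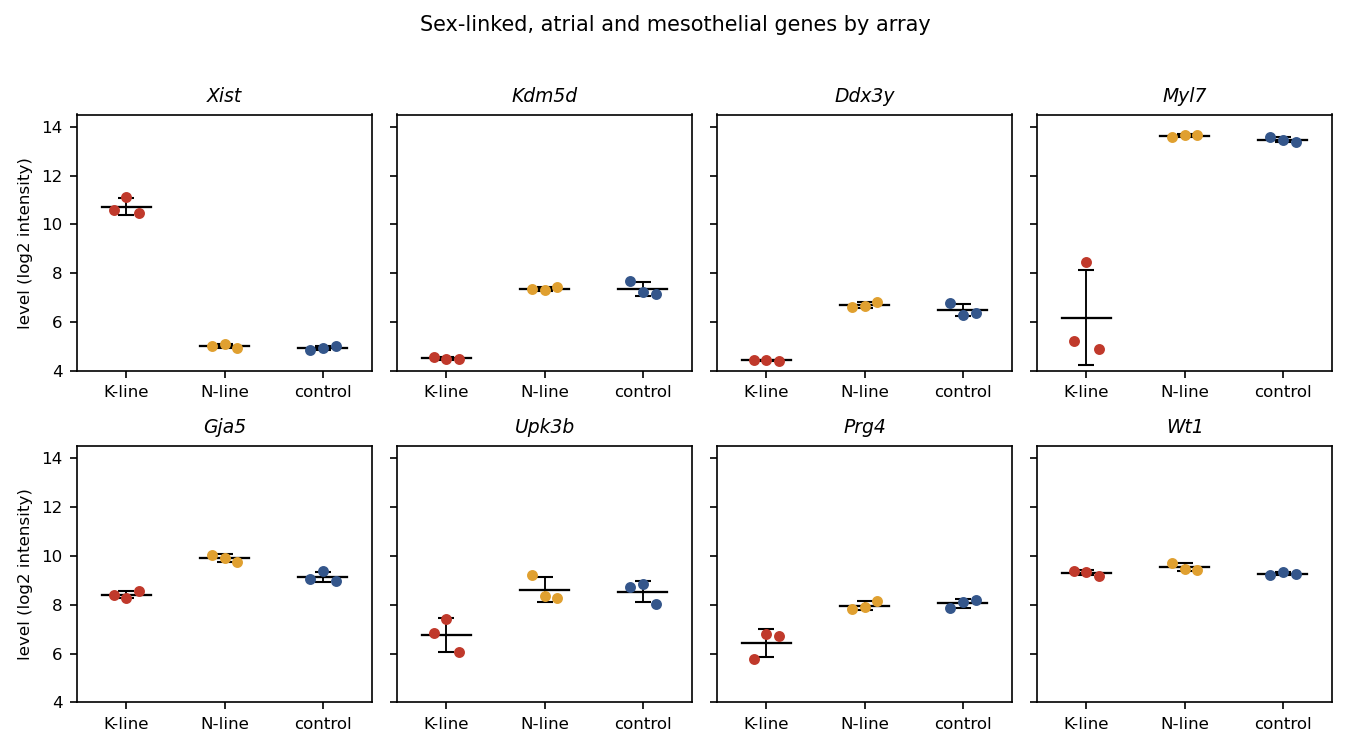
Levels (log2 intensity) of sex-linked (Xist, Kdm5d, Ddx3y), atrial (Myl7, Gja5) and mesothelial (Upk3b, Prg4, Wt1) genes on each array, with K-line at the left, N-line in the middle and control at the right. Points are arrays, and bars give the mean and SD over 3 arrays. Xist reached 11.13 in K-line and at most 5.03 in control, and the K-line points of Myl7 lay between 4.90 and 8.44.

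Of 19692 probes detected on at least 3 arrays, 4795 (24.3%) differed between K-line and control at an adjusted p under 0.05 by limma, 2359 (12.0%) higher and 2436 (12.4%) lower in K-line. For 40.6% of the probes the K-line and control arrays did not overlap. Most changes were small, since 1033 rises and 999 falls reached 1.5-fold, 287 and 227 reached 2-fold, 32 and 34 reached 4-fold and 9 and 8 reached 8-fold. Named genes, with 1 probe each, numbered 4619, and 1188 of them (25.7%) were called, 620 (13.4%) as rises and 568 (12.3%) as falls. Every count of list members below is to be read against these last 2 shares. Some list members passed the detection filter only through the K-line arrays, where they are high. That favours a rise but does not force one. Where a list below has such members among its rises, the count without them is given too. Members that passed only through the control arrays are likewise favoured to fall, and the counts of falls include them. The near balance of rises and falls depends on the scaling. Rises made up 49.2% of the calls after quantile normalization, 70.5% after scaling each array by its median (3030 rises and 1267 falls) and 84.3% in the authors' value table (5436 and 1014), where the median of all probes lay 0.24 above 0. Some probes crossed the detection threshold between the groups. On all 3 K-line arrays and no control array 318 were detected, of which 238 were called. On no K-line array and all 3 control arrays 162 were detected, of which 132 were called. Of the 318, 160 were detected on no N-line array either and passed the filter only through the K-line arrays. The spread was wider in K-line, with a median SD over probes of 0.146, against 0.118 in control.

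**Figure D2:**
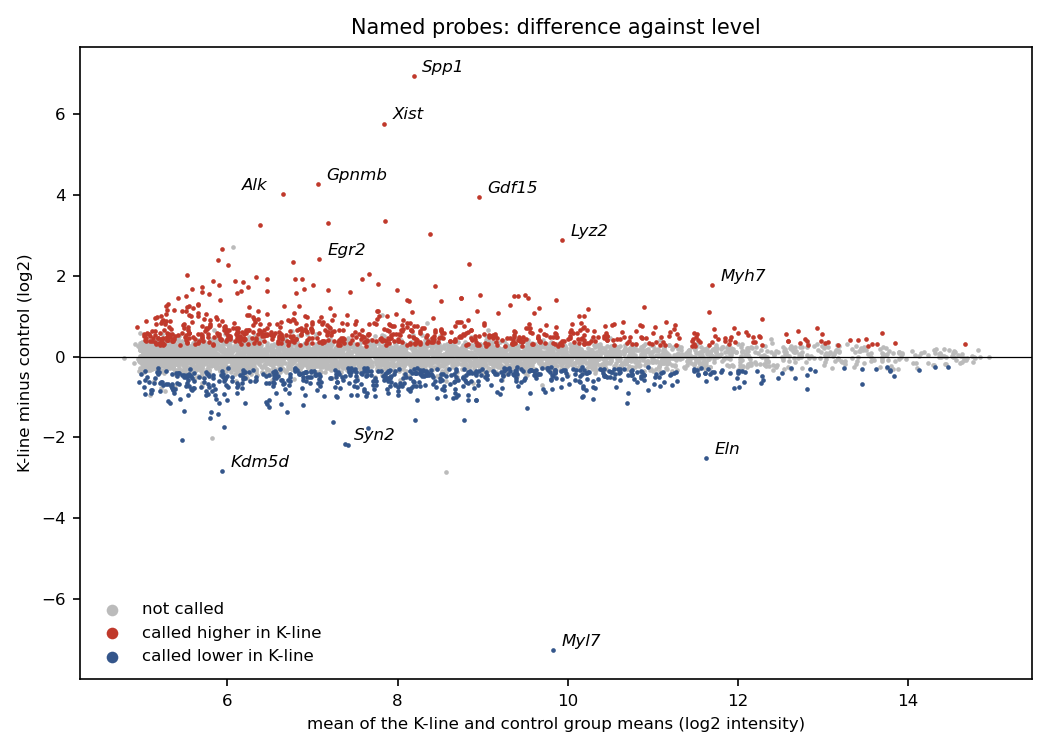
Difference between K-line and control (log2, vertical axis) against the mean of the K-line and control means (log2 intensity, horizontal axis) for 5215 named probes. Red points were called higher and blue points lower in K-line, and grey points were not called. Spp1 (6.96) and Xist (5.78) stand at the top and Myl7 (-7.28) at the bottom.

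The largest rise among named genes outside the sex chromosomes was that of Spp1, followed by Gpnmb, Alk and Gdf15. Spp1, which encodes osteopontin, a secreted matrix protein and cytokine, read 11.44, 11.63 and 11.94 in K-line, 6.50, 7.69 and 7.13 in N-line and 4.70, 4.64 and 4.79 in control. The rise in K-line was 6.96 in log2 (SE 0.24, 3 arrays per group, adjusted p 3.5e-08 by limma). The groups stood far apart, and control was below background, so the ratio is also given as a bound of at least 91.7-fold, in which each control array is set at no less than the lowest signal of a detected probe. Gpnmb, a membrane glycoprotein of phagocytes, read 9.04, 9.31 and 9.25 in K-line and 4.87, 4.76 and 5.12 in control, a rise of 4.28 (SE 0.12, adjusted p 7.87e-09), with only 1 of 3 control arrays above background. Alk, a receptor tyrosine kinase known from the developing nervous system, read 8.87, 8.67 and 8.46 in K-line and 4.58, 4.67 and 4.69 in control, where it was below background, as it was in N-line. It rose by 4.02 (SE 0.11), at least 11.4-fold. Gdf15, a cytokine of the TGF-beta family that cells secrete under stress, read 9.60, 11.61 and 11.57 in K-line, 4.93, 5.18 and 5.22 in N-line and 7.04, 7.10 and 6.81 in control. Its rise was 3.94 (SE 0.42, adjusted p 1.05e-04), with K-line array 3 the lowest of the group.

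Bcl2a1a, Bcl2a1b and Bcl2a1d, near-identical genes of the Bcl2 family that oppose cell death, rose by 3.32, 3.03 and 3.37, but their probes may read each other's transcripts and are best counted as 1 signal. Cd72, a lectin-like receptor of B cells and myeloid cells, read 7.69, 8.19 and 8.17 in K-line and 4.75, 4.91 and 4.61 in control, a rise of 3.26 and at least 7.29-fold. Egr2, a zinc finger transcription factor of the immediate early class, read 7.95, 8.80 and 8.10 in K-line and 5.68, 6.0 and 5.94 in control and rose by 2.41 (SE 0.22, adjusted p 4.09e-05). Mmp12, a macrophage protease that cuts elastin, read 6.03, 7.67 and 7.54 in K-line and 4.58, 4.86 and 4.63 in control, below background, a rise of at least 3.82-fold (2.39, SE 0.33). Its lowest K-line value was again on array 3, as for Gdf15 and Lyz2, whereas Alk was highest on that array. Dpep2, a membrane dipeptidase, rose by 2.28, at least 3.99-fold, with control below background. The other genes among the 15 largest rises, Lyz2, Clec7a, Cd74 and Clec4n, belong to the immune groups that follow.

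**Figure D3:**
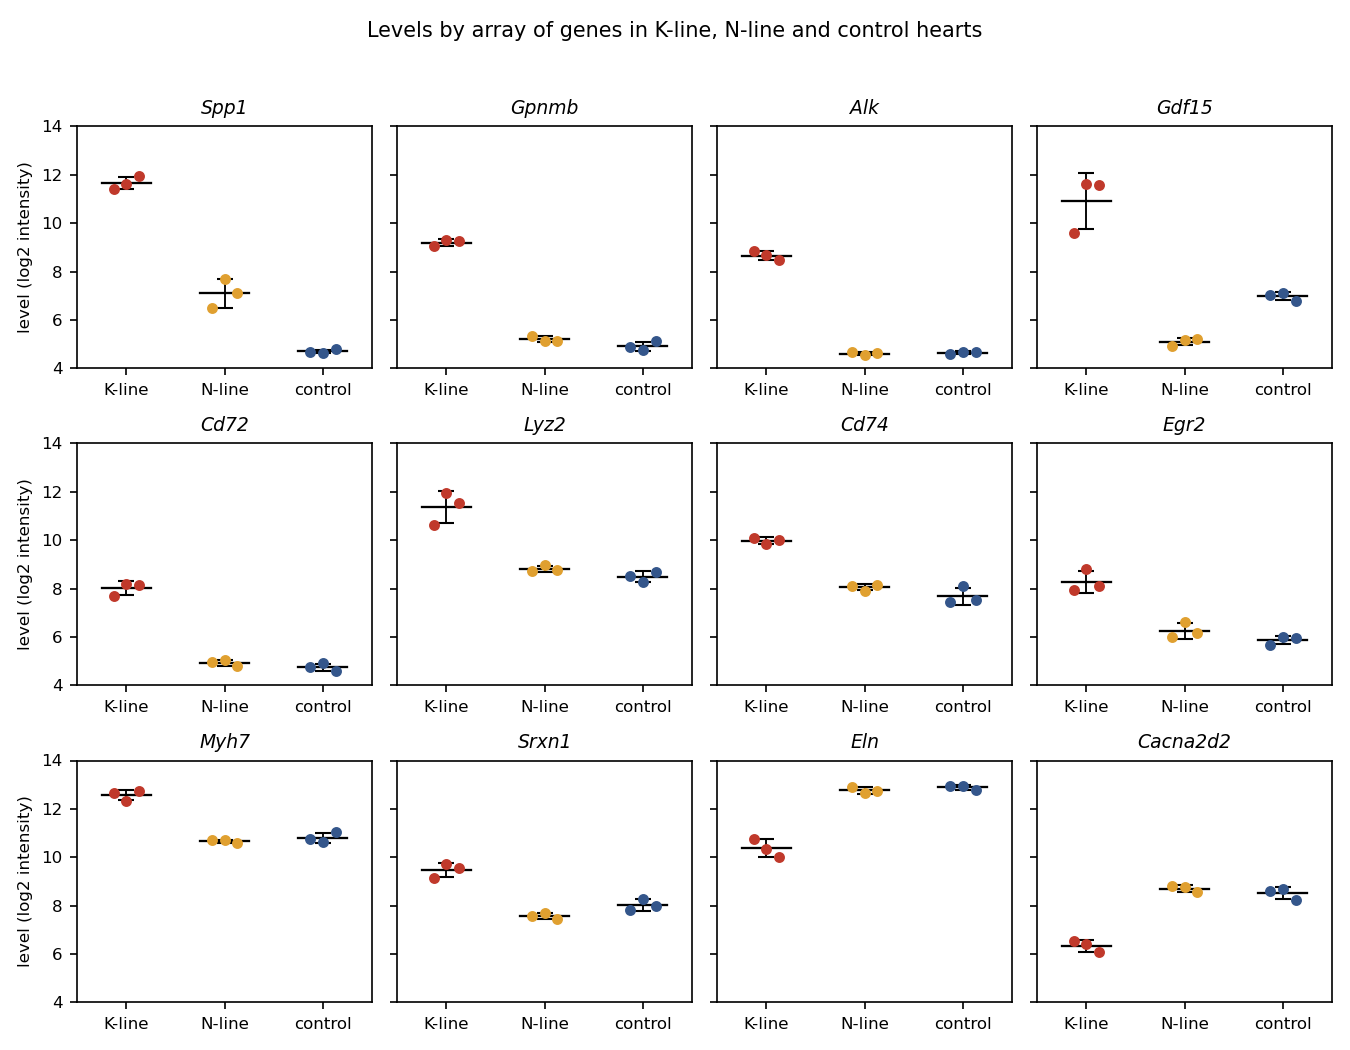
Levels (log2 intensity) of 12 genes on each array, with K-line at the left, N-line in the middle and control at the right of each panel. Points are arrays, and bars give the mean and SD over 3 arrays. Spp1 lay between 11.44 and 11.94 in K-line, between 6.50 and 7.69 in N-line and between 4.64 and 4.79 in control, and Eln lay lower in K-line than in both other groups.

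Macrophage genes rose as a group. Of 12 macrophage markers 6 were measured and all 6 rose, with a median difference of 1.51, while the median of all named genes was 0.01. Their mean level was 9.25, 9.83 and 9.69 on K-line arrays 3, 5 and 6, and 7.92, 7.77 and 7.79 on control arrays 1, 2 and 3. Lyz2, the lysozyme of macrophages, read 10.63, 11.96 and 11.55 in K-line and 8.53, 8.26 and 8.69 in control and rose by 2.89 (SE 0.26, adjusted p 4.13e-05), although its probe may also read the related Lyz1. The complement genes C1qb (1.53) and C1qa (1.46), which resident macrophages make, the Fc receptor Fcgr3 (1.49) and the lysosomal antigen Cd68 (1.85, detected on 2 of 3 control arrays) rose too. With the authors' value table the call of Cd68 ended at an adjusted p of 0.0618. All 6 calls were kept without any single array. K-line array 3 was the lowest of the 3 K-line arrays for C1qa (9.06, against 9.66 and 9.71 on the others) and for Fcgr3 (9.76, against 10.33 and 10.27).

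Among Fc receptors and myeloid signalling genes, 16 of 57 were measured, 15 rose and 0 fell, and the median was 1.5. Of the 16 measured, 8 passed the detection filter only through the K-line arrays, and of the other 8, 7 rose. Clec7a, the receptor for fungal beta-glucan known as dectin-1, read 7.65, 8.10 and 8.06 in K-line and 5.81, 5.59 and 5.39 in control and rose by 2.34 (SE 0.15). Its second probe rose by 1.51, at least 2.18-fold. Clec4n, the related receptor dectin-2, read 8.51, 8.90 and 8.66 in K-line and 6.65, 6.53 and 6.75 in control and rose by 2.04. For Clec7a and Clec4n, both among the 15 largest rises, no overlap between the groups was a condition of being named. The count stayed at 15 without each array in turn. Those fits kept the same probes, so the 8 that passed only through the K-line arrays stayed in. The 7 rises in the other 8 were not counted separately without single arrays. Markers of other leukocytes were measured thinly. The neutrophil gene S100a9 was at 0.30 (adjusted p 0.391), the mast cell protease Cma1 at 0.09 (adjusted p 0.752), and of the T and NK cell markers the 2 measured included 1 fall, Cd247 (-0.52), which was not called with either scaling alternative or without K-line 5, K-line 6, control 2 or control 3. No B cell marker of 5 was measured.

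Genes of antigen presentation followed. Of 19 measured genes for antigen presentation and interferon responses 10 rose and 0 fell. The median was 0.32, and all 19 would have been measured without the K-line arrays. Cd74, the chaperone of class II histocompatibility molecules, read 10.09, 9.83 and 10.03 in K-line and 7.45, 8.09 and 7.53 in control and rose by 2.29 (SE 0.16, adjusted p 5.68e-06). H2-Ab1, a class II chain, read 8.79, 8.43 and 8.39 in K-line and 6.44, 7.23 and 6.18 in control and rose by 1.92, with a second probe at 1.58. H2-DMb1, which helps load peptides on class II molecules, rose by 1.86, with 1 of 3 control arrays above background. These class II genes led the list, and Ifitm1, an interferon-induced membrane protein, was at 0.21 (adjusted p 0.137). Related H2 genes may share reads of a probe. Without 1 array the count of rises was 7 to 9.

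The signals that draw monocytes were called in part. Of 18 chemokines, cytokines and their receptors 4 rose and 1 fell, and 3 rose among the 15 that passed the filter without the K-line arrays. Ccl2, a chemokine for monocytes, read 7.43, 7.48 and 7.04 in K-line and 5.04, 5.67 and 5.35 in control, with 2 of 3 control arrays above background, and rose by 1.96 (SE 0.16). Cxcl16 rose by 1.38, and Cxcl14 by 0.99, at least 1.42-fold. In the complement list 3 of 7 rose, C1qb, C1qa and the receptor C3ar1 (1.15, at least 1.75-fold). C3ar1 passed the filter only through the K-line arrays, and 2 of the other 6 rose. Of 26 measured genes of the lysosome and of phagocytic cargo handling 13 rose and 0 fell, and the median was 0.28. That list includes Gpnmb, Lyz2 and Cd68, and its count was 10 to 12 without 1 array. Lyz2 and Cd68 also stand among the macrophage markers, so the lists share part of their values, and the part of macrophages in the lysosomal count was not tested.

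Targets of NRF2, the transcription factor that raises antioxidant enzymes, were called in part, with 8 rises, 0 falls and a median difference of 0.42 among 16 measured. Of the 14 that passed the filter without the K-line arrays 6 rose. The count was 7 to 11 without 1 array, 9 after median scaling and 9 with the authors' value table. Srxn1, which repairs oxidised peroxiredoxins, was read by 3 probes that all rose, by 1.44, 1.80 and 1.92. Its probe with the highest mean read 9.14, 9.70 and 9.57 in K-line, 7.58, 7.70 and 7.45 in N-line and 7.83, 8.29 and 7.97 in control. Sqstm1, the autophagy receptor p62, read 12.07, 12.11 and 12.46 in K-line and 11.06, 11.22 and 11.02 in control and rose by 1.11 (SE 0.12, adjusted p 1.05e-04). Osgin1, an oxidative stress gene, read 5.78, 6.30 and 6.10 in K-line and 4.94, 5.11 and 5.03 in control, below background, and rose by 1.03, at least 1.88-fold. Mt1, a metallothionein that binds metals, was at 0.18 (adjusted p 0.418) in K-line against control, while it fell by 1.25 in N-line against control.

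Promoter sequences were looked at for the antioxidant and AP-1 letters, since antioxidant genes and genes of the AP-1 class of immediate early factors (Junb) both rose. RefSeq promoters of assembly GRCm38.p6 span 250 bases before to 50 bases after a transcript start, and 22 of the 30 genes with the largest changes have one. Both strands were searched. The antioxidant response element letters TGACNNNGC were present in 20.7% of 652 promoters of genes that rose, in 12.8% of 578 promoters of genes that fell, in 14.2% of the promoters of all named genes tested and in 12.4% of all 32851 promoters. The AP-1 letters TGANTCA were present in 7.06%, 3.81%, 5.01% and 7.81% of these sets in the same order. Another 3 motifs were searched. The lysosomal E-box letters TCACGTG were present in 4.60%, 3.29%, 5.87% and 3.77%. The amino acid response element letters TGATGNAA were present in 3.07%, 1.90%, 2.02% and 3.97%, and the cAMP response element letters TGACGTCA in 2.91%, 3.11%, 2.82% and 1.79%. The shares are descriptions without a test, and a match is not a bound site. The 4 promoters below belong to an antioxidant gene pair and a macrophage pair that rose, and capitals mark the matched letters. In Srxn1 the AP-1 letters begin 102 and 45 bases before the start, and a match to the antioxidant letters on the opposite strand lies near the end of the window. In Osgin1 the AP-1 letters begin at position -97, in Gpnmb at position 9 and in the shown Mmp12 window at position -44, counted from the transcript start. The letters of the 2 motifs can overlap. The windows of Spp1, Gdf15 and Junb held none of the letters of either motif.
Srxn1, chr2:152105274-152105573, plus strand: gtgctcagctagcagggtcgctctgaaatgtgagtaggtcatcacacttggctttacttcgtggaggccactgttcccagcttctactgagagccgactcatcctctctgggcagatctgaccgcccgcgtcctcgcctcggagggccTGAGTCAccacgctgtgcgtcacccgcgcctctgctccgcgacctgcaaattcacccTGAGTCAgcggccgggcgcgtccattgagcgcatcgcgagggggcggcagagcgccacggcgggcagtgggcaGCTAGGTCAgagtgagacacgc
Osgin1, chr8:119436897-119437196, plus strand: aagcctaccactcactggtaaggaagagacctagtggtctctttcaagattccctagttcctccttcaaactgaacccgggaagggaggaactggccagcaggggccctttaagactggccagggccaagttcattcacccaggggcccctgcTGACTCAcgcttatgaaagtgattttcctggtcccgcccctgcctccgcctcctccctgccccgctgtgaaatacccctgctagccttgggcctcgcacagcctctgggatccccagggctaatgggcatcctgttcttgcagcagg
Gpnmb, chr6:49036268-49036567, plus strand: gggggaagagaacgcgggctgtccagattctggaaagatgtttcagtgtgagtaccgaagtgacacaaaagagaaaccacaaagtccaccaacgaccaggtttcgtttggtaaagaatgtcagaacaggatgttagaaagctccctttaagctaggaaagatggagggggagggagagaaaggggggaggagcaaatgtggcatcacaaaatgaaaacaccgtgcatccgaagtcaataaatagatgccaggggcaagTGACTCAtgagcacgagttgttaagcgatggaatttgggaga
Mmp12, chr9:7347124-7347423, plus strand: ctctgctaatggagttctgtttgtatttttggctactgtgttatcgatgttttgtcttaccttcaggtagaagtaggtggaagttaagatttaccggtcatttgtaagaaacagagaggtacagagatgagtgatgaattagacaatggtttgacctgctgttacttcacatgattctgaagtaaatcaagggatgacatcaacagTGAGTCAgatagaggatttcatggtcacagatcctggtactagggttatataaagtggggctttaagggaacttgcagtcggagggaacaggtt

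Immediate early genes, which respond to signals within minutes, went in both directions. Of 9 measured 4 rose and 2 fell, and 8 of the 9 passed the filter without the control arrays. The other is Nr4a3, 1 of the 2 falls, and passing only through the control arrays favours a fall. Besides Egr2, Junb read 8.67, 8.80 and 8.95 in K-line and 7.33, 7.66 and 7.24 in control and rose by 1.39 (SE 0.12, adjusted p 3.44e-05). Fosl2, another AP-1 subunit, rose by 0.51. Nr4a3, an orphan nuclear receptor, read 4.74, 5.22 and 4.80 in K-line, 4.88, 4.75 and 4.94 in N-line and 6.01, 5.95 and 5.93 in control, and it was above background on all 3 control arrays, on 1 K-line array and on no N-line array. It was called lower in K-line (adjusted p 2.55e-04) and in N-line (adjusted p 0.00361) against the same control arrays, but the K-line and N-line values lie at or near background and give no size of the fall. A second probe, below background on all K-line arrays, fell by at least 1.59-fold in K-line. Among 9 measured genes of the integrated stress response, Gdf15 and the transcription factor Cebpb (0.87) rose and the secreted glycoprotein Stc2 fell by 0.95. The folding stress lists held few calls: 1 of 7 genes of the endoplasmic reticulum response rose (Derl2, 0.55), Xbp1 was at 0.10 (adjusted p 0.561), and of 10 heat shock genes 0 rose and 2 fell, with the heat shock factor Hsf1 at -0.44 and Hspa8 at 0.13 (adjusted p 0.333). The heat shock falls were 1 without control 1, 2 or 3, K-line 5 or K-line 6. The hypoxia list had 3 rises in 7 measured, led by Pfkfb4 (0.81), an enzyme that sets the pace of glycolysis, and without K-line 5, K-line 6, control 1 or control 3 only 1 of the 3 was called.

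Genes for making and degrading proteins were mostly higher by small amounts. Of 19 measured proteasome subunits 8 rose and 0 fell, 18 were higher, and the median was 0.39. Psmd11, a regulatory subunit, read 8.19, 8.48 and 8.24 in K-line and 7.68, 7.20 and 7.60 in control and rose by 0.81 (SE 0.15, adjusted p 0.00280). The core subunit Psma5 rose by 0.86. Psma2 was at 0.16 (adjusted p 0.263). Psmc1 was uneven within groups, with 9.51, 4.54 and 8.22 in K-line, 5.23, 4.72 and 8.53 in N-line and 4.74, 4.62 and 4.78 in control, and it was not called. The count of proteasome rises was 7 to 10 without 1 array.

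Of 70 measured cytosolic ribosomal proteins 13 rose and 0 fell, 66 were higher and the median was 0.15. The share called, 13 of 70, is close to the 13.4% of all named genes. The count was 5 without control 2, 8 without control 3 and 9 to 11 without each other array, and it was 8 after median scaling and 26 with the authors' value table. Rpl12 read 11.66, 11.91 and 11.79 in K-line and 11.29, 11.09 and 11.19 in control and rose by 0.60 (SE 0.11, adjusted p 0.00337), while Rpl41 was at 0.01 (adjusted p 0.935). Ribosomal protein probes may also read processed pseudogenes. Of 30 translation factors 6 rose and 0 fell, with the initiation factor genes Eif4g2 (0.81) and Eif4a1 (0.62) first. Of 24 genes of ribosome production 4 rose and 2 fell, led by Nhp2 (0.76), a protein of the small nucleolar particles that modify ribosomal RNA. Without control 1 or K-line 5 the rises were 1, and without control 2, control 3 or K-line 6 they were 2. The falls were 0 without control 1, control 2, control 3 or K-line 6. With the authors' value table, in which all probes shift upward, the rises were 13 for translation factors, 16 for ribosome production and 13 for the proteasome.

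In the list of growth factors, receptors and MAP kinase signalling 7 of 23 rose and 2 fell, and 6 of the 21 that passed the filter without the K-line arrays rose. Apart from Alk and Gdf15, Igf1, a growth factor for the postnatal heart, read 7.10, 7.49 and 7.29 in K-line and 6.62, 6.73 and 6.74 in control and rose by 0.60 (SE 0.11, adjusted p 0.00293). The binding proteins Igfbp6 and Igfbp5, which hold insulin-like growth factors, fell by 0.97 and 0.53. Without control 1 the list had 4 rises. Of 19 genes for Wnt, Notch, TGF-beta and BMP signals 3 rose and 3 fell, which is close to the share of all named genes. Without K-line 3, K-line 5, control 1 or control 2 the rises were 1. Tgfbr1, a TGF-beta receptor, read 11.45, 11.83 and 11.66 in K-line and 10.86, 10.85 and 10.88 in control and rose by 0.78, while the endothelial receptor Notch4 fell by 0.51. Cell cycle genes had 4 rises and 2 falls in 19, with 3 rises among the 17 that passed the filter without the K-line arrays, and without control 2 or control 3 the rises were 0. Cenpa, a histone of the centromere, fell by 0.72.

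Heart muscle genes moved one by one. Myh7, the slow myosin heavy chain of the fetal and the loaded mouse heart, read 12.66, 12.34 and 12.75 in K-line, 10.70, 10.70 and 10.57 in N-line and 10.75, 10.64 and 11.05 in control. It rose by 1.77 (SE 0.13, adjusted p 1.15e-05), or 3.41-fold, with no overlap, whereas Myh6 was at 0.16 (adjusted p 0.328). Of 15 measured members of the list of natriuretic peptide, fetal and hypertrophy genes 5 rose and 2 fell. No natriuretic peptide was among those measured. The calcineurin subunit Ppp3ca, part of a phosphatase that signals muscle growth, rose by 0.49, and the other catalytic subunit Ppp3cb was at 0.00 (adjusted p 0.985). Acta2, the smooth muscle actin that the fetal heart also makes, read 9.85, 9.83 and 10.09 in K-line and 10.73, 10.71 and 10.69 in control and fell by 0.78 (SE 0.10, adjusted p 2.69e-04). The rises of this list were 3 without control 1 or control 2. Among Z-disc and stretch genes 3 of 13 rose, with the stretch-responsive Ankrd23 at 0.62 and Pdlim7 at 0.67, and 5 rose without K-line 3. Without K-line 5 this list also had 3 falls.

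Genes of the junctions between muscle cells were mostly called. Of 9 measured intercalated disc and desmosome genes 5 rose and 1 fell. Their median was 0.37, and 4 or 5 rose without any 1 array. Cdh2, the cadherin that joins heart muscle cells, read 9.66, 9.27 and 9.37 in K-line and 8.64, 8.52 and 8.61 in control and rose by 0.84 (SE 0.11, adjusted p 4.40e-04), with a second probe at 1.0. The desmosome genes Dsg2 (0.62), Pkp2 (0.48) and Jup (0.37) also rose, and the linker protein Plec fell by 0.57. Ctnna1, which ties cadherins to actin, was at -0.09 (adjusted p 0.483).

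Ion channel genes changed in both directions. Of 19 potassium, sodium and chloride channel genes 5 rose and 4 fell. For Kcne1, a partner subunit of the slow potassium current, the values were 8.16, 7.39 and 7.68 in K-line and 6.34, 5.75 and 6.09 in control, a rise of 1.68 (SE 0.20, adjusted p 2.48e-04), and another probe rose by 1.58. Kcna5, a voltage-gated potassium channel, read 9.49, 9.59 and 9.42 in K-line and 8.56, 8.07 and 8.50 in control and rose by 1.12. Kcnk2, a stretch-sensitive potassium channel, rose by 0.86 in K-line and by 0.66 in N-line against the shared controls, and K-line and N-line differed by 0.20 (adjusted p 0.287). Cacna2d2, a helper subunit of calcium channels, read 6.33 ± 0.23 in K-line and 8.51 ± 0.25 in control (SD, n = 3 each) and fell by 2.19 (SE 0.15, adjusted p 5.68e-06). It was the largest fall among 17 calcium handling genes, of which 3 rose and 3 fell. The calcium pump Atp2a2, which refills the sarcoplasmic reticulum, was at -0.14 (adjusted p 0.442). Leaving out control 1, 2 or 3 left 1 rise in that list. Among 10 measured sodium, proton, bicarbonate and monocarboxylate transport genes 0 rose and 2 fell, Slc4a2 and Slc4a3. Both calls ended without control 1, control 2, control 3, K-line 5 or K-line 6. They also ended after median scaling and with the authors' value table. The second probe of Slc4a3 was at 0.43 and was not called (adjusted p 0.0947). The sodium pump subunit Atp1b1 was at 0.12 (adjusted p 0.382).

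Mitochondrial lists had small negative medians after quantile normalization, and none of their measured members rose there. Of 22 complex I genes 1 fell, and the list's median of -0.10 was 0.01 with the authors' value table, so its direction depends on the scaling. The fall was that of Ndufa10, which read 13.18, 13.18 and 13.01 in K-line and 13.75, 13.82 and 13.85 in control and fell by 0.69 (SE 0.09, adjusted p 4.50e-04). Of 25 genes of complexes II to V and cytochrome c 6 fell, with a median of -0.13. The ATP synthase subunit Atp5c1 and cytochrome c1 (Cyc1) each fell by 0.47. The count was 3 without control 1, control 3, K-line 5 or K-line 6, 2 after median scaling and 3 with the authors' value table. Of 38 genes for the mitochondrial ribosome and protein import 9 fell, led by Mrpl1, which read 10.67, 10.61 and 10.55 in K-line and 11.03, 11.19 and 11.35 in control and fell by 0.58, though its second probe was at -0.14 (adjusted p 0.352). That count was 3 without K-line 6, 4 without control 2 or control 3 and 6 without K-line 5, and it was 4 after median scaling. In the value table of the authors 3 members fell and 4 rose, and the list's median was 0.03, so the direction of this list depends on the scaling too.

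Of 15 fatty acid uptake and oxidation genes 4 fell and 1 was higher, with a median of -0.17. Acsl1, which activates fatty acids for oxidation, read 11.22, 10.78 and 10.62 in K-line and 11.54, 11.71 and 11.47 in control and fell by 0.70 (SE 0.14, adjusted p 0.00551). Pnpla2, the lipase of lipid droplets, read 11.93, 11.84 and 12.06 in K-line and 12.66, 12.55 and 12.60 in control and fell by 0.66. The count was 2 without control 2, control 3, K-line 5 or K-line 6, and 2 under median scaling and in the authors' value table. Pdhb, a subunit of pyruvate dehydrogenase, read 8.77, 8.44 and 8.56 in K-line and 9.30, 9.32 and 9.26 in control and fell by 0.71. It was 1 of 2 falls among 11 genes of the tricarboxylic acid cycle and pyruvate oxidation, where 4 fell without K-line 3. Of 16 glycolysis and glucose transport genes 4 rose and 0 fell, with Gpi1 (0.39, second probe 0.54) the call kept without each single array and Gapdh at 0.00 (adjusted p 0.981). Without control 1 Gpi1 was the only rise of this list, and without K-line 5, K-line 6, control 2 or control 3 there were 2. In lipid synthesis Srebf2, a regulator of cholesterol synthesis, read 8.33, 8.37 and 8.40 in K-line and 7.73, 7.71 and 7.71 in control and rose by 0.65 (SE 0.08, adjusted p 3.26e-04), while its second probe was at 0.38 and was not called (adjusted p 0.0897).

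**Figure D4:**
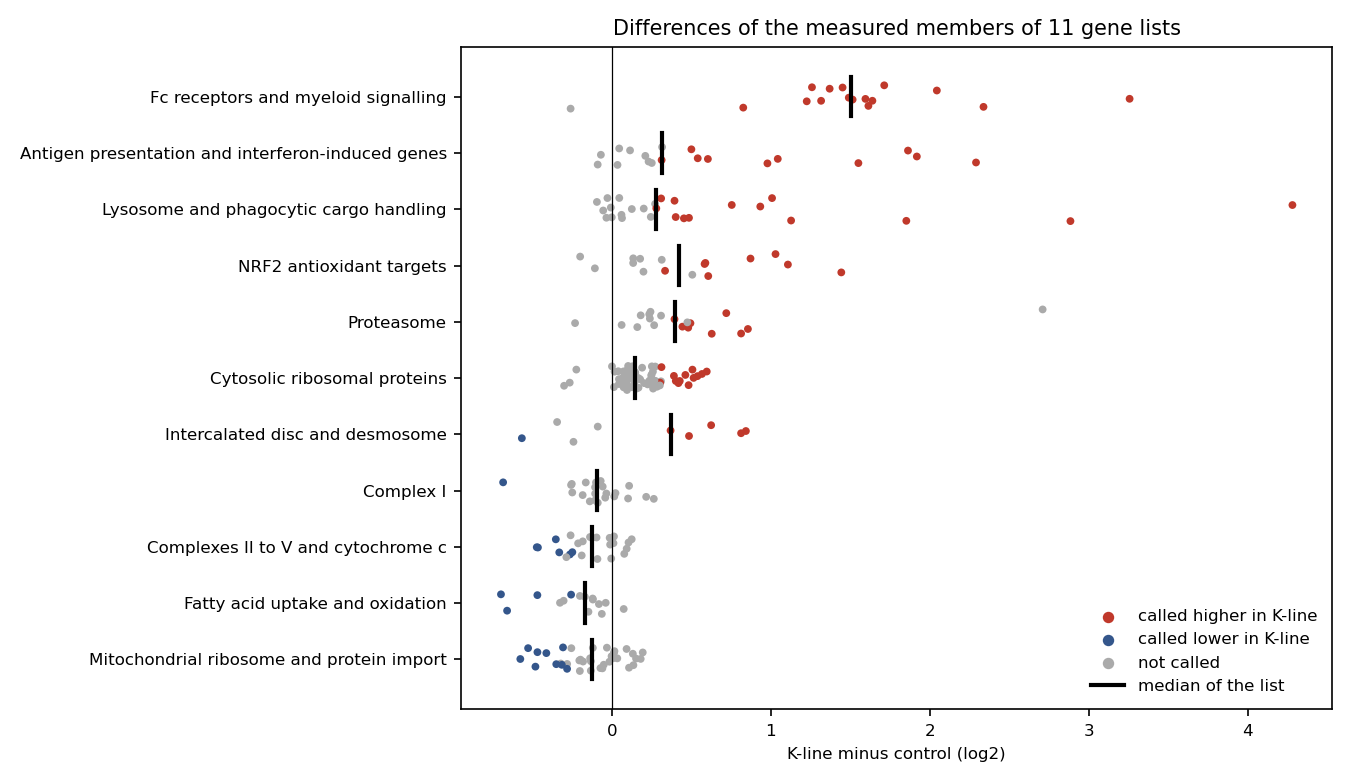
Difference between K-line and control (log2, horizontal axis) of every measured member of 11 gene lists, 1 point per gene, with red for genes called higher, blue for genes called lower and grey for genes not called in K-line. Black bars are list medians, from 1.5 for Fc receptors and myeloid signalling to -0.17 for fatty acid uptake and oxidation. The grey point at 2.71 in the proteasome row is Psmc1, which was uneven within groups.

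The matrix changed gene by gene. Of 19 elastic fibre and matricellular genes 6 rose and 4 fell, 5 of the rises among the 18 that passed the filter without the K-line arrays, and the 4 falls were kept without any 1 array. Eln, which encodes elastin, read 10.76, 10.36 and 10.01 in K-line, 12.92, 12.66 and 12.73 in N-line and 12.93, 12.96 and 12.78 in control and fell by 2.51 (SE 0.16, adjusted p 4.24e-06), or 5.70-fold. Ltbp1, which stores TGF-beta in the matrix, read 8.37, 7.89 and 8.33 in K-line and 9.19, 9.27 and 9.10 in control and fell by 0.99. Thbs1, a matricellular protein, read 6.17, 6.59 and 5.76 in K-line and 4.89, 5.06 and 4.82 in control, below background, and rose by 1.25, at least 2.03-fold. Ccn1, a matricellular ligand of integrins, rose by 1.12. Dcn, the collagen-binding decorin made by fibroblasts, was at 0.03 (adjusted p 0.860).

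Of 19 collagen, laminin and related genes 4 rose and 0 fell. Col8a1, a short-chain collagen, read 9.84, 10.95 and 10.02 in K-line and 9.03, 8.99 and 9.16 in control and rose by 1.21 (SE 0.23, adjusted p 0.00383). Pcolce, which promotes collagen processing, rose by 0.71, while the collagen chaperone Serpinh1 was at -0.01 (adjusted p 0.946). Of 15 matrix proteases and inhibitors 4 rose and 3 fell, and 3 of the 14 that passed the filter without the K-line arrays rose. Besides Mmp12, the protease inhibitor Serpina3n read 9.93, 10.09 and 10.76 in K-line and 8.94, 8.90 and 8.61 in control and rose by 1.44, and the aggrecanase Adamts4 rose by 0.73. Timp3, an inhibitor of metalloproteases, fell by 0.53 in K-line and by 0.51 in N-line against the shared controls, and its second probe, at -0.32 in K-line, was not called (adjusted p 0.151). In the list of actin, annexin and S100 genes 7 of 29 rose and 1 fell, led by Lcp1 (1.71, detected on 2 of 3 control arrays), the plastin of leukocytes, and Msn (1.14), which links actin to the membrane, while the probes of beta-actin (Actb) disagreed, with 1 at 0.00 (adjusted p 0.987) and the other called higher at 0.37 (adjusted p 0.0325).

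The largest falls included genes of the atria, of the heart's outer lining and of channels. Myl7, above background on 2 of 3 K-line arrays, fell by 7.28 (SE 0.69, adjusted p 5.18e-05), and the other atrial and conduction markers measured also fell, Gja5, the connexin of atria and conduction fibres, by 0.73 and the adhesion protein Cntn2 by 0.98. The call of Cntn2 ended with the authors' value table (adjusted p 0.0530), and its second probe was at 0.11. Gja5 read 8.38, 8.28 and 8.55 in K-line, 10.06, 9.91 and 9.75 in N-line and 9.05, 9.38 and 8.97 in control, so that it fell in K-line and rose by 0.78 in N-line. Markers of mesothelium, the cell sheet that covers the heart, included 3 falls and 1 rise in 5 measured. The falls were kept without any 1 array, and the rise, that of the keratin Krt18 (0.53), ended without K-line 6, control 1 or control 3. Upk3b, a uroplakin of mesothelial cells, read 6.83, 7.43 and 6.05 in K-line and 8.73, 8.84 and 8.04 in control and fell by 1.77 (SE 0.34, adjusted p 0.00414). Prg4, a lubricating proteoglycan, read 5.79, 6.80 and 6.70 in K-line and 7.86, 8.12 and 8.19 in control and fell by 1.63. Periplakin (Ppl) fell by 1.74, detected on 1 of 3 K-line arrays, with a second probe at -1.09. Wt1, a transcription factor of the epicardium, was at 0.03 (adjusted p 0.862).

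Syn2, a synapsin of nerve terminals, read 6.37, 6.41 and 6.12 in K-line and 8.36, 8.56 and 8.49 in control and fell by 2.17 (SE 0.11, adjusted p 7.38e-07). Whrn, a scaffold protein known from hair cells of the ear, fell by 1.58. Aqp4, a water channel, read 8.58, 7.51 and 7.89 in K-line and 9.41, 9.55 and 9.74 in control and fell by 1.57. The K-line and control arrays did not overlap for any of these genes. Dhh, a hedgehog ligand of Schwann cells, read 5.29, 5.13 and 5.13 in K-line, 5.75, 5.81 and 5.70 in N-line and 6.52, 6.85 and 6.43 in control, and it fell by 1.42 in K-line and by 0.85 in N-line. Gap43, a protein of growing axons, fell by 0.63. Further large falls were Ear1, a ribonuclease of the eosinophil family with close paralogs (-1.37, the other probe at -0.77 and not called), the potassium channel Kcnj15 (-1.37) and the GTPase Rab6b (-1.34), both above background on 1 of 3 K-line arrays only, the membrane protein Lrtm1 (-1.28, second probe -1.16) and the red cell skeleton protein Dmtn (-1.26). Another red cell skeleton gene, Ank1, fell by 0.99, while the globin Hba-a1 was at -0.03 (adjusted p 0.848).

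Among 5 endothelial markers 2 fell, with the guidance receptor Robo4 at -0.43, and among 5 fibroblast markers 1 rose and 1 fell. The fibroblast fall was called without control 3 but ended without each other array, and the endothelial falls were 1 without each array but control 2. Car3, an enzyme of fat and slow muscle and the adipocyte marker measured, was uneven within groups, with 4.68, 11.48 and 5.27 in K-line and 8.36, 11.56 and 10.10 in control. It was not called (-2.86, SE 1.46, adjusted p 0.179), nor was its second probe (-0.30). Casq1 of skeletal muscle (-0.26) and Apoa1 of liver (-0.07) were not called either. For the 15 genes with the largest rises, the difference between K-line and N-line was between 1.71 (Clec4n) and 5.82 (Gdf15), and the difference between N-line and control was between -1.87 (Gdf15, adjusted p 0.0704) and 2.40 (Spp1, adjusted p 0.00161). For the 15 largest falls, K-line minus N-line lay between -7.44 (Myl7) and -0.57 (Dhh), and N-line minus control between -0.85 (Dhh) and 0.19 (Cacna2d2). These comparisons share arrays with K-line against control, so the values stand side by side and are not separate evidence.

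**Figure D5:**
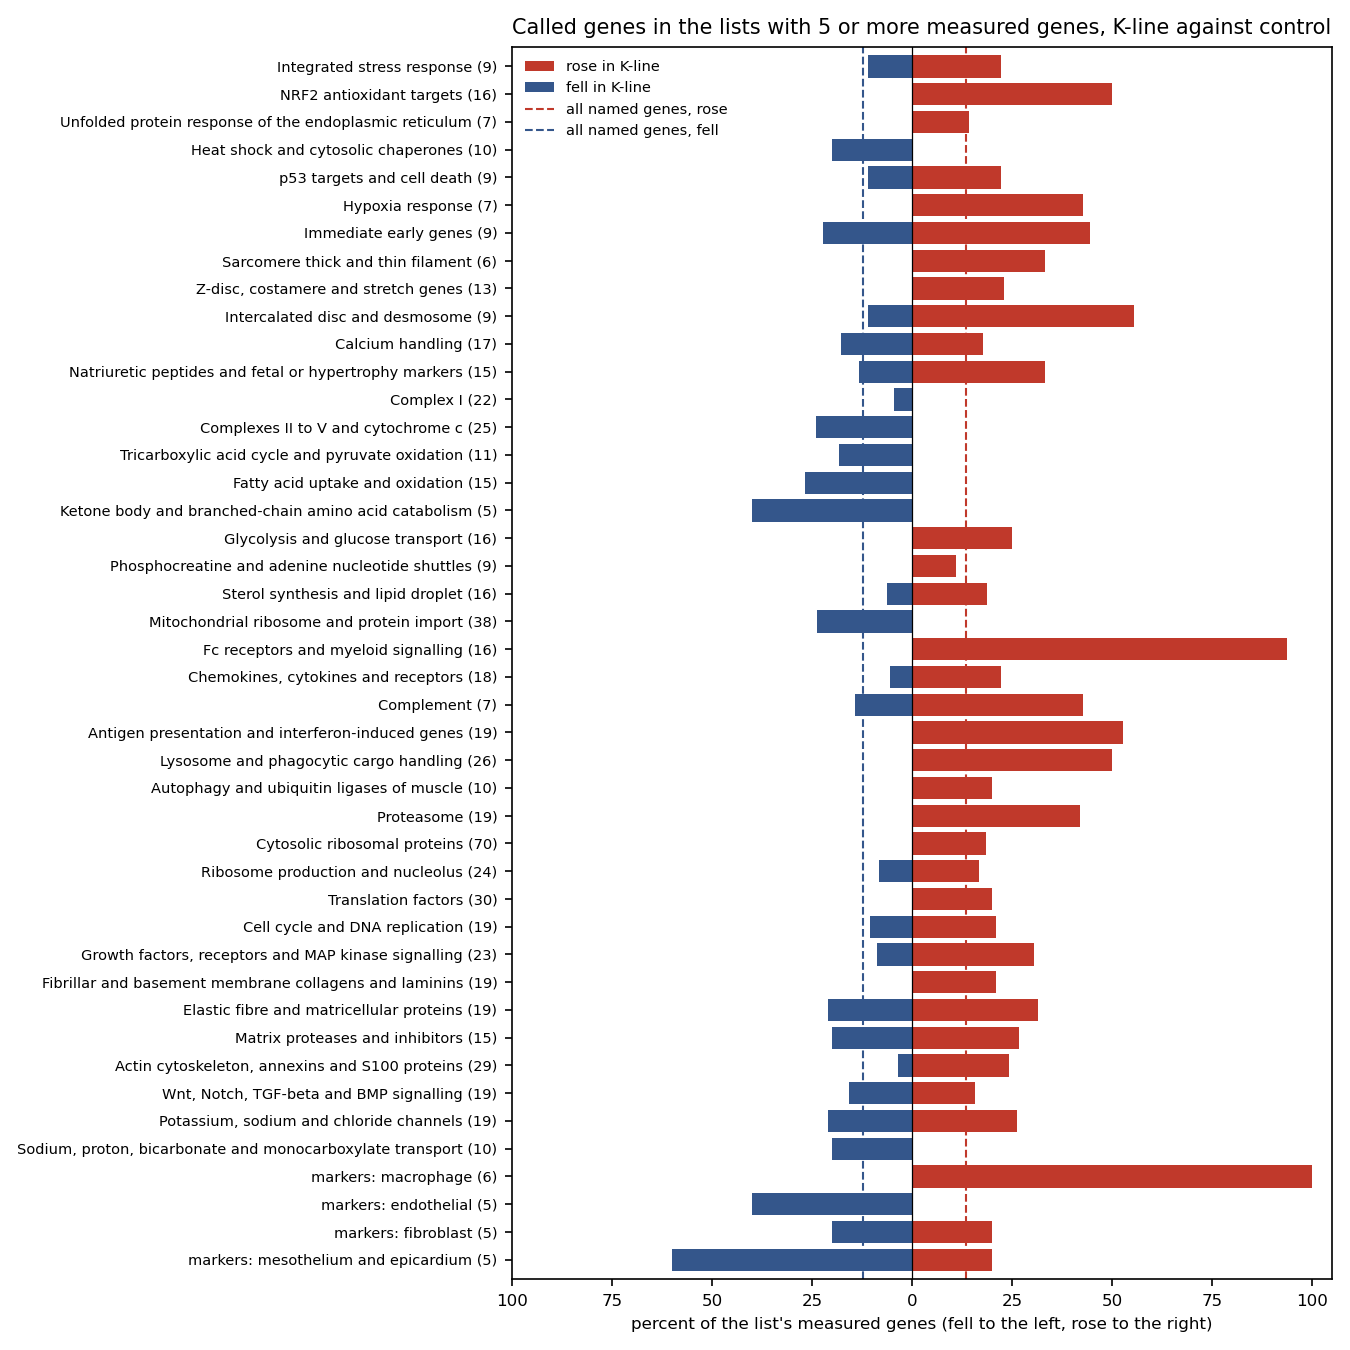
Percent of the measured genes of each list that rose (red, to the right) or fell (blue, to the left) in K-line against control, for the lists with 5 or more measured genes, whose number stands in brackets. Dashed lines mark the 13.4% of all named genes that rose and the 12.3% that fell. Macrophage markers (6 of 6) and Fc receptors and myeloid signalling (15 of 16) have the longest bars, and the mitochondrial lists have bars to the left only. Of the 16 Fc receptor and myeloid genes 8 passed the detection filter only through the K-line arrays, and of the other 8, 7 rose.

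Several genes were read by more than 1 probe. Of 525 such genes outside the sex chromosomes, 31 had every probe called as a rise, 19 had every probe called as a fall, 2 had probes called in opposite directions, 162 had only some probes called and 311 had none. The 5 genes with the largest change shared by all their probes were Clec7a (2.34 and 1.51), Srxn1 (1.44, 1.80 and 1.92), H2-Ab1 (1.92 and 1.58), Kcne1 (1.68 and 1.58) and Lrtm1 (-1.28 and -1.16).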

How the data were processed

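Total RNA from 9 heart samples was labelled and read on bead arrays, 3 per group. Per the file headers, the deposited tables hold the mean bead intensity per probe from BeadStudio 2.3.47 with no normalization, and a detection score, a fraction from 0 to 1, from which 1 minus the score was taken as detection p-value. The authors' value table also holds intensity, with 34.4% to 35.7% of each deposited column below 0. Its scale is linear, the sources used here give no normalization for it, and its column medians (9.28 to 9.29 in K-line, 7.55 to 7.57 in the other groups) differ by slide. It served only as an alternative, floored at 1 before log2 was taken. No 2 arrays shared more than 327 raw values, so all were kept.

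Raw intensities were background corrected with limma 3.58.1 (R 4.3.3; normexp from detection p-values, offset 16), quantile normalized over all 9 arrays and log2 transformed. Probes with a detection score over 0.95 on at least 3 arrays (19692) were tested with lmFit and eBayes in 1 model of 3 group means, with Benjamini-Hochberg adjustment over all of them at 0.05, and scripts were tested on simulated data. Differences are K-line minus control in log2 unless stated, and the number of arrays limits the precision. Genes were named by reading a number in the probe code as an NCBI gene number (82.6% of 11857 numbers are mouse genes in the RefSeq table of GRCm38.p6, at most 46.0% after shifting), plus 9 by accession, which names 5215 tested probes (26.5%) of 4619 genes. This reading was inferred, and gene lists are measured only in part. A gene with several probes is represented by the one with the highest mean. The genes named are the 15 largest rises and 15 largest falls that were called, detected throughout the higher group, not overlapping between groups and outside chromosomes X and Y, the up to 3 largest rises and falls and the member with the highest mean in each of 59 lists (41 of gene function, 18 of cell type markers), the 5 genes with the largest change shared by all their probes, and the sex markers; Pkp2, Jup and Psmc1 were added after their values were seen. Members and lists were chosen with earlier results of these data known. Alternatives were other scalings, offsets, filters, array weights, the value table and leaving out each array. The transgene's own level and the values of some list members are not reported here.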

Additional observations from a re-analysis of the deposited data

How the results depend on the processing

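No paired analysis was possible because K-line and control share only replicate number 3. Of 4795 changed probes, counts under other settings were 4297 after median scaling, 6450 with the authors' value table, 5033 without background correction, 5040 with an offset of 50, 4949 with the stricter filter, 4342 without a filter, 4068 with only K-line and control arrays, 4882 with array weights and 4759 once the named X and Y probes were removed. The falls numbered 1267 after median scaling, and the value table gave 5436 rises and 1014 falls, which lie over 1.5 times from the 2359 and 2436 reported. The median of all probes was -0.01 after quantile normalization, 0.09 after median scaling and 0.24 in the value table. With a change of at least 1.5-fold required, 2032 changed, 1033 higher and 999 lower. Without 1 array, 3327 to 4692 probes changed, 1632 to 2303 higher and 1694 to 2389 lower. Of 205 genes named by rule 166 were called, 107 kept their call under every alternative, 59 lost it under at least 1, 47 of these without a single array, and 0 reversed. The cause was not tested. Signal over background limits dim probes, and among the 4923 with the lowest mean 9.28% were called higher and 6.48% lower.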
